A study of Mus musculus with 6 samples.

Results

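The nuclear lamina and the LINC complex were followed through 10 genes that were chosen by name. The rule uses no measured value, but earlier results of these data were known when the genes were chosen. They are the lamins Lmna, Lmnb1 and Lmnb2, the lamina-associated proteins Emd, Lemd3 and Banf1, the SUN proteins Sun1 and Sun2, and the nesprins Syne1 and Syne2. All 10 were found among the 21485 gene identifiers shared by the 6 deposited matrices, and all 10 passed the filter on low counts in every comparison below. The samples were muscle-derived stem/progenitor cells (MDSPCs) from mouse skeletal muscle, which were enriched by moving cells that had not yet attached to new collagen-coated flasks. The study profiled 6 populations, 3 from mice labelled young and 3 from mice labelled old, by droplet-based 3′ single-cell RNA sequencing, all grown in the same proliferation medium. The labels give no treatment, genotype, strain, sex or age in numbers, and old and young are the labels' own words. The cells were cultured before sequencing, so each population stands for expanded cells and not for cells taken directly from muscle.

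The lamina is a meshwork of intermediate filament proteins under the inner nuclear membrane. Lmna encodes the A-type lamins A and C, which are abundant in stiff tissues such as muscle, while Lmnb1 and Lmnb2 encode the B-type lamins, which stay attached to the membrane through a farnesyl group. Emerin (Emd) and MAN1 (Lemd3) are inner membrane proteins with a LEM domain that binds Banf1, a small DNA-bridging protein used to rebuild the nucleus after mitosis. SUN proteins span the inner membrane and nesprins the outer one, and their joined domains form the LINC complex (linker of nucleoskeleton and cytoskeleton). Mutations in LMNA, EMD, SYNE1 and SYNE2 are associated with Emery-Dreifuss muscular dystrophy, and loss of lamin B1 is widely used as a marker of cellular senescence.

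On GRCm38, the build behind mm10, 2 of the lamin genes were Lmna (ENSMUSG00000028063) at chr3:88480147-88509956 and Lmnb2 (ENSMUSG00000062075) at chr10:80901203-80918245. The lamina-associated genes were Emd (ENSMUSG00000001964) at chrX:74254687-74261548, Lemd3 (ENSMUSG00000048661) at chr10:120923413-120979332 and Banf1 (ENSMUSG00000024844) at chr19:5364638-5367168. The LINC complex genes were Sun1 (ENSMUSG00000036817) at chr5:139200637-139249840, Sun2 (ENSMUSG00000042524) at chr15:79724070-79742536, Syne1 (ENSMUSG00000096054) at chr10:5020917-5551482 and Syne2 (ENSMUSG00000063450) at chr12:75818134-76110926. Counts are per gene, so isoforms of a gene are not told apart.

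Promoters of 4 genes that rose with the called cell cycle state are shown, since letters known from promoters of cell cycle genes can be looked for in them. Promoters are from RefSeq (GRCm38.p6), run from 250 bases before to 50 bases after the annotated start, and are written 5′ to 3′ on the gene's strand. Capitals mark every match, on either strand, to a CHR (written TTTGAA or else TTTAAA), to an E2F motif (any of the spellings TTCCCGC or else TTGGCGC or else TTCGCGC or else TTGCCGC) or to CCAAT. No match overlapped another.
Sun2 promoter, chr15:79742487-79742786, minus strand: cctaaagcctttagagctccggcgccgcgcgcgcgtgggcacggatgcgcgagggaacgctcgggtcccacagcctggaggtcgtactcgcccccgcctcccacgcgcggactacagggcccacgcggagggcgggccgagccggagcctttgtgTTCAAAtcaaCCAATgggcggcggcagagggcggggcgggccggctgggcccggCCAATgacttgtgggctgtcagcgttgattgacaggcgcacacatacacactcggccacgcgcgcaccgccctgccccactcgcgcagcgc
Lmnb2 promoter, chr10:80918196-80918495, minus strand: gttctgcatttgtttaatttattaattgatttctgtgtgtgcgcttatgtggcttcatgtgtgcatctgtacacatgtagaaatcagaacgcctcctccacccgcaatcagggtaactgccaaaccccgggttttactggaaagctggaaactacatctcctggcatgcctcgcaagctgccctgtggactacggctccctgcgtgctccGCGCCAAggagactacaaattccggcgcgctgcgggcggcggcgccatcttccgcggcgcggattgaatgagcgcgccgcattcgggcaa
Banf1 promoter, chr19:5366827-5367126, minus strand: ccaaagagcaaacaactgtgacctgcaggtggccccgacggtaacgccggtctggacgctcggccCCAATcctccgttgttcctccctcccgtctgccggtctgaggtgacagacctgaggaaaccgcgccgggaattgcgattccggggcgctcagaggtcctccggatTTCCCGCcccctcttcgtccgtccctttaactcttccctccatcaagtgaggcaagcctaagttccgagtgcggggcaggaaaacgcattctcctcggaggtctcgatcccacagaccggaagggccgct
Syne2 promoter, chr12:75818068-75818367, plus strand: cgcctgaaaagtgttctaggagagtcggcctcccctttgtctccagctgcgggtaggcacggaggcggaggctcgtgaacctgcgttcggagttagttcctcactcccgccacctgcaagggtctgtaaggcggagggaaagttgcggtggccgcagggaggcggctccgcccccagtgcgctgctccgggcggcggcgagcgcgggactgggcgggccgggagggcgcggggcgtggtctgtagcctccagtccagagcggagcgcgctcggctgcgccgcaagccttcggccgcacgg

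The table held a promoter for 9 of the 10 genes, and Lmnb1 was the gene with none. It listed 15 promoters for these 9, with more than 1 for 5 of them, and the most upstream is described. Sun2 was the only one of the 9 with a CHR match, against 27.6% of the 32851 promoters in the table, and its match lay 95 to 90 bases before the start. It also held 2 CCAAT matches, at 85 to 81 and 41 to 37 bases before the start. E2F letters were found in 4 of the 9 (Lmnb2, Banf1, Lemd3 and Syne1), against 9.57% of all promoters, and CCAAT in 5 (Emd, Banf1, Lemd3, Sun1 and Sun2), against 37.4%. Lmna and Syne2 held no match. Of all 15 listed promoters, 1 held a CHR match, 4 held E2F letters and 7 held CCAAT. Counting a gene if any of its promoters matched, the CHR and E2F genes were the same. The other Lmna promoter held CCAAT, which made 6 genes. Lmnb2, Banf1 and Syne1 each also had a listed promoter with no E2F match. A match is a description of letters in this window and not evidence of binding.

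The 6 populations gave 62849 deposited barcodes, of which 61673 cells were kept, with 133608357 to 193380549 unique molecular identifiers (UMIs) per population and medians of 13001 to 19951 UMIs per cell. Each UMI stands for 1 captured RNA molecule. Young 1 and old 1 had been counted on a shorter gene list and with an earlier Cell Ranger version than the other 4. Of 10 myogenic markers, 9 or 10 were above 1 CPM (UMIs scaled to a fixed library total) in every population. Those below 1 CPM were Myf5 in young 1 and Pax7 in young 3. The summed level of the 10 ran from 310 CPM in old 1 to 3540 CPM in old 3. Vcam1 was the highest of them in young 3 and Chrna1 in the rest. Summed endothelial markers reached at most 1.37 CPM and immune markers 7.92 CPM. Smooth muscle and pericyte markers summed to 13.4 to 88.0 CPM, highest in young 2, and adipocyte markers, nearly all Fabp4, to 1.86 to 47.7 CPM, highest in young 1. Notch3 alone gave 68.3 CPM of the smooth muscle and pericyte sum of young 2. Kcnj8 was below 1 CPM in all 6 populations and Myh11 in all but old 1. Fibro-adipogenic markers summed to 283 to 511 CPM, with 5 or 6 of the 8 above 1 CPM in every population. They were led by Gsn, at 149 CPM (old 1) to 317 CPM (old 2). Lum was below 1 CPM in all 6 and Pdgfra in young 2, young 3, old 2 and old 3. Dcn was below 1 CPM in young 1, young 3, old 1 and old 2. In young 3 and old 1 the fibro-adipogenic sum (326 and 345 CPM) was above the myogenic sum (319 and 310 CPM). Between 24 and 41 barcodes were shared by any pair of libraries, at most 0.375% of the smaller one.

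Cells were placed in cell cycle states by scoring S and G2/M gene sets, neither of which holds any of the 10 genes, and UMIs were then summed per population and state. G1-called cells are those in which neither score was above 0. Their share was 48.9%, 40.8% and 19.7% in young 1, 2 and 3, and 35.4%, 62.5% and 43.8% in old 1, 2 and 3. S-called cells made up 11.9% to 23.3% and G2/M-called cells 24.2% to 65.1%. These shares depend on the scoring: with all populations scored together, S-called cells were 38.6% in young 3 (15.2% scored alone), 35.4% in old 1 (14.0%) and 26.2% in old 3 (11.9%), G1-called cells were 20.6% in old 1 and 14.2% in young 3, and 6.55% to 24.6% of the calls of a population differed. Levels below are CPM with TMM scaling, which gives a gene's share of the RNA and not its amount per cell. Fewer cells of a kind and less RNA per cell cannot be told apart in such sums. Levels of the 10 genes are compared between samples and states of 1 gene and not between genes. The marker sums above and the lamin ratio below do set different genes side by side.

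The B-type lamins, Syne2, Emd and Banf1 were higher in S-called and G2/M-called cells than in G1-called cells of the same population, Syne1 was lower, and Lmna did not pass the test. Sun2 was higher in G2/M-called cells than in both other states. In S against G1, 5 of the 10 genes were higher and 2 lower at an edgeR adjusted p under 0.05, where 55.3% of all 13386 genes tested were called (23.0% higher and 32.3% lower). In G2/M against G1, 6 were higher and 2 lower, where 53.9% of all genes were called (23.1% higher and 30.8% lower). In each comparison 45.1% of all genes changed in 1 direction in all 6 populations. With backgrounds this high, the number of genes called is not a result about the group. The median log2 change of the 10 genes was 0.13 in S and 0.36 in G2/M, beside -0.06 and -0.04 over all genes tested.

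Lmnb1 moved most. In G1-called cells it stood at 11.9, 16.6 and 38.2 CPM in young 1, 2 and 3, against 31.2, 7.59 and 14.1 CPM in old 1, 2 and 3 (values are given in this order throughout). In S-called cells the values were 37.6, 88.7 and 93.4 CPM (young) against 68.6, 49.8 and 68.7 CPM (old). In G2/M-called cells they were 48.0, 105 and 88.1 CPM (young) against 70.6, 62.2 and 63.6 CPM (old). Every population rose from G1 to both other states, and the G1 value of young 3 was just above the S value of young 1. The rise was 3.65-fold in S (log2 1.87, SE 0.24, edgeR adjusted p = 6.2e-05) and 4.02-fold in G2/M (log2 2.01, SE 0.24, edgeR adjusted p = 3.55e-05). It was smallest in old 1 (2.26-fold in G2/M) and largest in old 2 (8.16-fold), the population with the lowest G1 level.

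Lmnb2 rose in the same comparisons in all 6 populations. Its G1 levels were 6.45, 10.8 and 7.26 CPM (young) against 8.85, 8.73 and 25.2 CPM (old). The G2/M levels were 10.9, 24.7 and 13.2 CPM (young) against 16.6, 18.5 and 56.7 CPM (old). Old 3 was the highest population in both states, above the rest without overlap. The fold was 1.67 in S (log2 0.74, SE 0.07, edgeR adjusted p = 5.26e-07) and 2.01 in G2/M (log2 1.01, SE 0.07, edgeR adjusted p = 2.22e-08), with single populations between 1.68 and 2.29 in G2/M.

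Lmna, in contrast, kept to a narrow band. Its G1 levels were 692, 706 and 890 CPM (young) against 701, 733 and 744 CPM (old), and its G2/M levels were 702, 716 and 867 CPM and 690, 865 and 812 CPM. The fold was 0.978 in S (edgeR adjusted p = 0.448) and 1.04 in G2/M (log2 0.06, SE 0.03, edgeR adjusted p = 0.178). The small S difference passed the threshold when old 2 was left out (log2 -0.07, edgeR adjusted p = 0.0435). G2/M-called cells were deeper, with median depths of 14997 to 21351 UMIs against 11704 to 19378 in G1-called cells. Lmna UMIs per cell were 8.55 to 15.2 in G1-called and 10.9 to 21.0 in G2/M-called cells over the 6 populations.

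**Figure D1:**
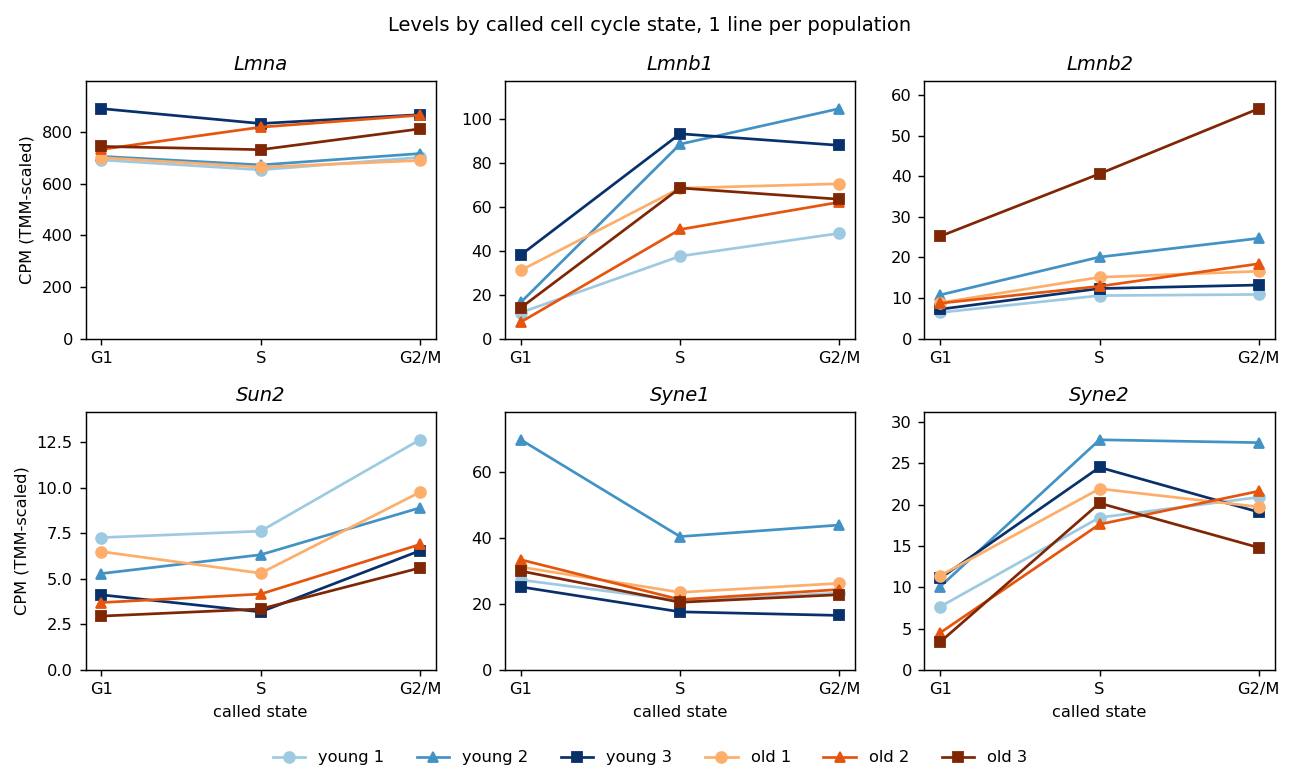
Level of 6 of the genes (y axis, TMM-scaled CPM, from 0) in G1-called, S-called and G2/M-called cells (x axis), with 1 line per population, blue for young and orange for old. Lmnb1, Lmnb2 and Syne2 rise from G1 to the other states in all 6 populations, Lmna stays between 653 and 890 CPM, Syne1 falls, and Sun2 rises between S and G2/M.

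Among the lamina-associated genes, Emd and Banf1 showed smaller rises. Emd went from 58.3, 50.7 and 73.2 CPM in G1-called cells of the young populations to 80.3, 70.2 and 82.0 CPM in their G2/M-called cells. In the old populations it went from 65.6, 83.5 and 80.1 CPM to 77.3, 136 and 118 CPM. The fold was 1.35 in G2/M (log2 0.43, SE 0.06, edgeR adjusted p = 3.73e-05) and 1.36 in S (log2 0.45, SE 0.06, edgeR adjusted p = 2.81e-05), with the largest changes in old 2. Banf1 was 189 to 223 CPM in G1-called and 223 to 276 CPM in G2/M-called cells, a 1.22-fold change (log2 0.28, SE 0.03, edgeR adjusted p = 6.32e-06) that was positive in 6 of 6 populations. Its S change was 1.19-fold (log2 0.25, SE 0.03, edgeR adjusted p = 2.1e-05). Lemd3, at 7.28 to 12.1 CPM in any state, did not pass in either comparison (log2 -0.03 and -0.04, SE 0.07 in both, edgeR adjusted p = 0.716 and 0.631), and 3 populations were higher and 3 lower in each.

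Sun2 rose in G2/M-called cells, and its calls against G1 and against S passed in every alternative setting run for them. In G1-called cells it was 7.26, 5.28 and 4.11 CPM (young) against 6.48, 3.69 and 2.95 CPM (old). In S-called cells it was 7.61, 6.31 and 3.18 CPM and 5.30, 4.16 and 3.34 CPM, which was higher in 4 populations and lower in 2. In G2/M-called cells it was 12.6, 8.89 and 6.53 CPM and 9.74, 6.88 and 5.59 CPM, above both other states in every population. The S change was 0.02 on the log2 scale (SE 0.09, edgeR adjusted p = 0.898), while the G2/M change was 1.71-fold (log2 0.77, SE 0.08, edgeR adjusted p = 1.13e-06). A direct contrast of G2/M with S, added after these values were seen, gave 1.69-fold for Sun2 (log2 0.76, SE 0.08, edgeR adjusted p = 3.28e-05). In that contrast 17.0% of genes were called (9.14% higher), and of the 10 genes only Sun2 and Lmnb2 (log2 0.27, SE 0.07, edgeR adjusted p = 0.0126) passed, both higher. The Lmnb2 call in G2/M against S was lost without old 3 (log2 0.22, edgeR adjusted p = 0.0758). Sun2 counts were low, from 65 UMIs in the smallest of the 18 sums to 932 in the largest.

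Sun1 fell in both states as a mean, but not in every population. Its log2 change in S against G1 was -0.65 in young 2, -0.52 in old 3 and -0.33 in old 2, and between -0.04 and 0.05 in the other 3. The fitted change was -0.27 in S (SE 0.09, edgeR adjusted p = 0.0189) and -0.24 in G2/M (SE 0.09, edgeR adjusted p = 0.0293). Both calls were lost without young 2 (-0.18 and -0.14, edgeR adjusted p = 0.103 and 0.185), without old 2 (-0.26 and -0.21, edgeR adjusted p = 0.0582 and 0.103) or without old 3 (-0.21 and -0.22, edgeR adjusted p = 0.0921 and 0.0741). The S call was also lost with sums of thinned counts (-0.18, edgeR adjusted p = 0.122). These 3 populations were also the ones with the highest summed myogenic markers, at 2398, 1790 and 3540 CPM against 310 to 382 CPM in the other 3. The part of that difference in the Sun1 change was not tested. Sun1 UMIs per cell were lower in G2/M-called than in G1-called cells of young 2 (0.515 against 0.654) and old 2 (0.462 against 0.518). They were higher in young 1 (0.247 against 0.205), young 3 (0.323 against 0.240), old 1 (0.274 against 0.220) and old 3 (0.360 against 0.354). The falls are thus in the share of the RNA.

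The nesprins moved in opposite directions. Syne2, which encodes nesprin-2, was 7.65, 10.1 and 11.1 CPM (young) against 11.4, 4.50 and 3.39 CPM (old) in G1-called cells. In S-called cells it was 18.4, 27.9 and 24.5 CPM and 21.9, 17.6 and 20.2 CPM, so every S value was above every G1 value. The change was 2.87-fold in S (log2 1.52, SE 0.21, edgeR adjusted p = 7.32e-05) and 2.72-fold in G2/M (log2 1.45, SE 0.20, edgeR adjusted p = 9.31e-05). Syne1, which encodes nesprin-1, was 27.2, 69.7 and 25.1 CPM (young) against 31.1, 33.3 and 29.9 CPM (old) in G1-called cells. In G2/M-called cells it was 23.2, 43.8 and 16.5 CPM and 26.2, 24.3 and 22.7 CPM, lower than G1 in 6 of 6. Its log2 change was -0.55 in S (SE 0.06, edgeR adjusted p = 2.41e-06) and -0.44 in G2/M (SE 0.06, edgeR adjusted p = 1.64e-05). These are falls in the share of the RNA. Syne1 UMIs per cell were slightly higher in G2/M-called than in G1-called cells of young 1 (0.360 against 0.336) and old 1 (0.473 against 0.461). They were lower in young 2 (0.849 against 1.07), young 3 (0.339 against 0.396), old 2 (0.590 against 0.693) and old 3 (0.358 against 0.371).

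**Figure D2:**
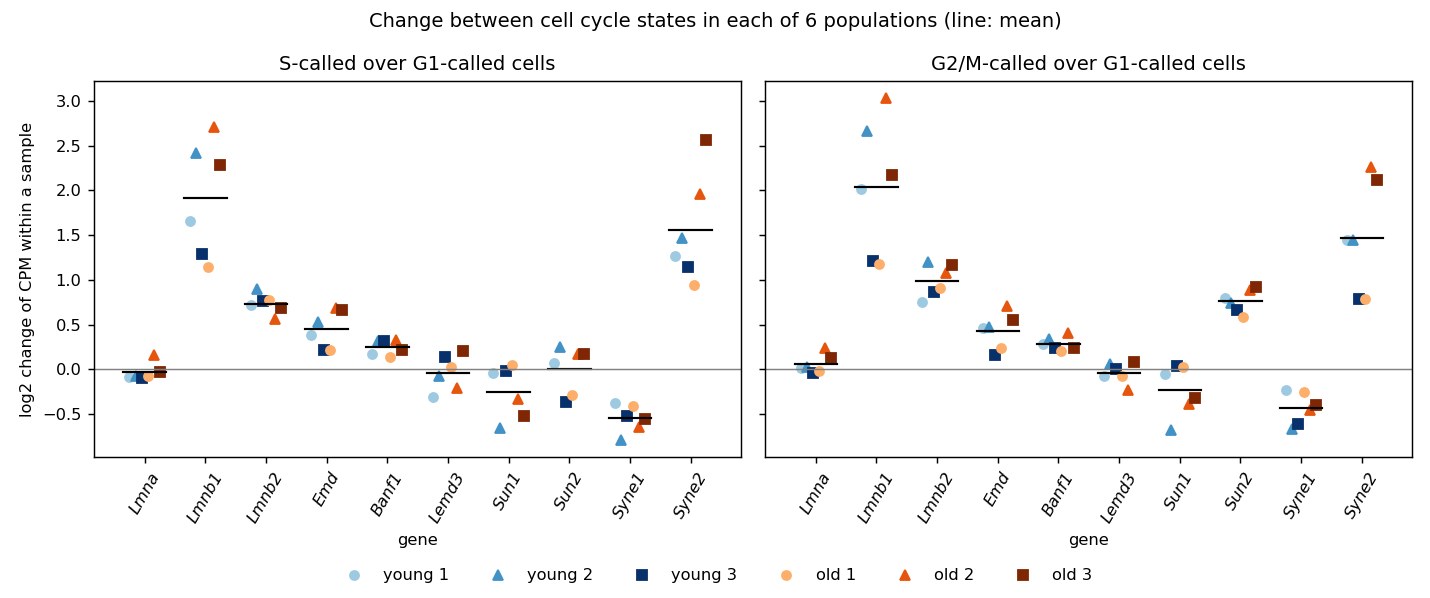
Log2 change of CPM within each population (y axis) for the 10 genes (x axis), S-called over G1-called cells on the left and G2/M-called over G1-called cells on the right. Each point is 1 of 6 populations and the line their mean, and Lmnb1 and Syne2 lie highest, Syne1 is below 0 in every population, and Sun2 is above 0 in every population only on the right.

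Whether these state changes differed with age was tested by adding age to the same fit. No gene of the 13386 passed for either state (0% called), 433 and 428 genes had an unadjusted p under 0.05, and DESeq2 called 0 and 1. For Lmnb1 the old-minus-young difference in the S change was 0.22 (SE 0.52) and in the G2/M change 0.14 (SE 0.51) on the log2 scale, with edgeR adjusted p = 1.00 for both. The sign of the Lmnb1 difference turned without young 3 or without old 2. The interval left by these errors is wide for Lmnb1 and Syne2 (SE 0.42 in S) and narrow for Lmna and Banf1 (SE 0.07).

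Levels over all kept cells were then compared between old and young populations, with the gene list as a term. None of the 10 genes passed in edgeR, where 0.00689% of 14512 genes were called (1 gene, 512 at an unadjusted p under 0.05), nor in DESeq2, which called 219 genes. None of the 10 had old and young values that did not overlap, where 6.05% of all genes had. The median log2 change of the 10 genes was -0.09, beside -0.01 over all genes.

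Among the lamins, no gene passed between old and young. Lmna was 698, 687 and 863 CPM (young) against 682, 784 and 771 CPM (old), a log2 change of -0.01 (SE 0.20, edgeR adjusted p = 1.00). Lmnb1 was 30.0, 68.6 and 80.5 CPM (young) against 57.1, 28.2 and 44.7 CPM (old), a log2 change of -0.40 (SE 0.48, edgeR adjusted p = 1.00). The lowest Lmnb1 levels were those of old 2 and young 1, which had the largest shares of G1-called cells (62.5% and 48.9%), and the highest was that of young 3, which had the smallest (19.7%). The part of these shares in the Lmnb1 levels was not tested. Within the 4 populations on the longer gene list the log2 change was -1.03 (SE 0.32, unadjusted p = 0.0298, edgeR adjusted p = 0.722), while on the shorter list old 1 was above young 1 by 0.93. Without old 2 the change was 0.00. In G1-called cells alone it was -0.49 (SE 0.74), in S-called cells alone -0.12 (SE 0.36) and in G2/M-called cells alone -0.22 (SE 0.28). Lmnb2 was 9.0, 18.4 and 12.1 CPM (young) against 13.8, 12 and 42.4 CPM (old), a log2 change of 0.76 (SE 0.50, edgeR adjusted p = 1.00) that was 0.07 without old 3.

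Of the lamina-associated genes, Emd was 70.7, 62.2 and 80.7 CPM (young) against 72.6, 105 and 103 CPM (old). Old 2 and old 3 were above all young populations and old 1 was within their range (log2 0.38, SE 0.22, edgeR adjusted p = 1.00). The log2 change ran from 0.21 to 0.55 when 1 population was left out. Emd lies on the X chromosome, whose 485 tested genes had a median shift of 0.76 on the log2 scale in old 2, against -0.19 to -0.07 in the other 5. With each chromosome's shift taken out, the log2 change of Emd was 0.08. Old 3, whose X chromosome shift was -0.07, was nearly as high in Emd as old 2, and the part of the shift in the Emd levels was not tested. Banf1 was 231, 248 and 251 CPM (young) against 241, 220 and 208 CPM (old) (log2 -0.13, SE 0.20, edgeR adjusted p = 1.00). Its change was -0.22 to -0.08 when 1 population was left out. On the longer gene list it was -0.22, and between the 2 populations on the shorter one 0.06. Lemd3 ranged from 8.12 CPM in old 2 to 11.1 CPM in young 3 (log2 -0.06, SE 0.25).

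**Figure D3:**
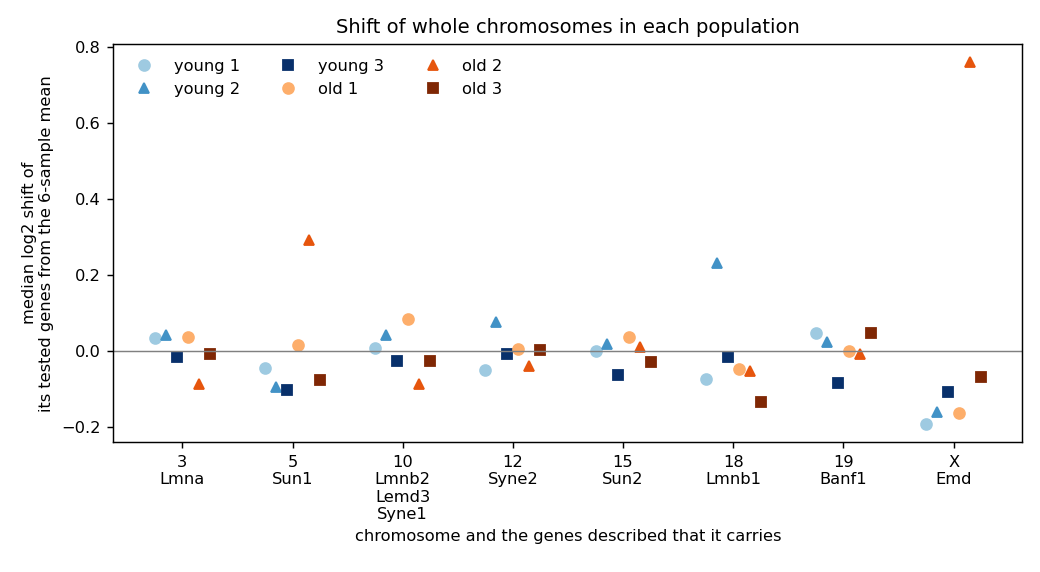
Median log2 shift from the mean of the 6 populations over the tested genes of each chromosome that carries one of the 10 genes (y axis), with 1 point per population (x axis: chromosome and genes). The X chromosome of old 2 stands at 0.76 and chromosome 5 of old 2 at 0.29, while chromosome 18 of young 2 stands at 0.23.

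For the LINC complex, Sun1 was 16.6, 31.5 and 15.5 CPM (young) against 14.9, 22.7 and 24.6 CPM (old) (log2 -0.05, SE 0.31, edgeR adjusted p = 1.00). Sun2 was 9.23, 6.95 and 5.68 CPM (young) against 8.02, 4.63 and 4.29 CPM (old) (log2 -0.40, SE 0.28, edgeR adjusted p = 1.00). Old 2 and old 3 held the lowest Sun2 values, and old 1 lay between young 1 and young 2. Syne1 was 25.2, 51.2 and 17.9 CPM (young) against 27.1, 29.4 and 25.2 CPM (old), with young 2 far above the rest (log2 -0.19, SE 0.42). Syne2 was 14.8, 20.8 and 18.5 CPM (young) against 17.2, 10.9 and 10.9 CPM (old) (log2 -0.50, SE 0.29, edgeR adjusted p = 1.00). Its log2 change was -0.85 on the longer gene list and 0.21 between the 2 populations on the shorter one. Sun1 lies on chromosome 5 and Lmnb1 on chromosome 18, whose shifts in single populations were up to 0.29 and 0.23.

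**Figure D4:**
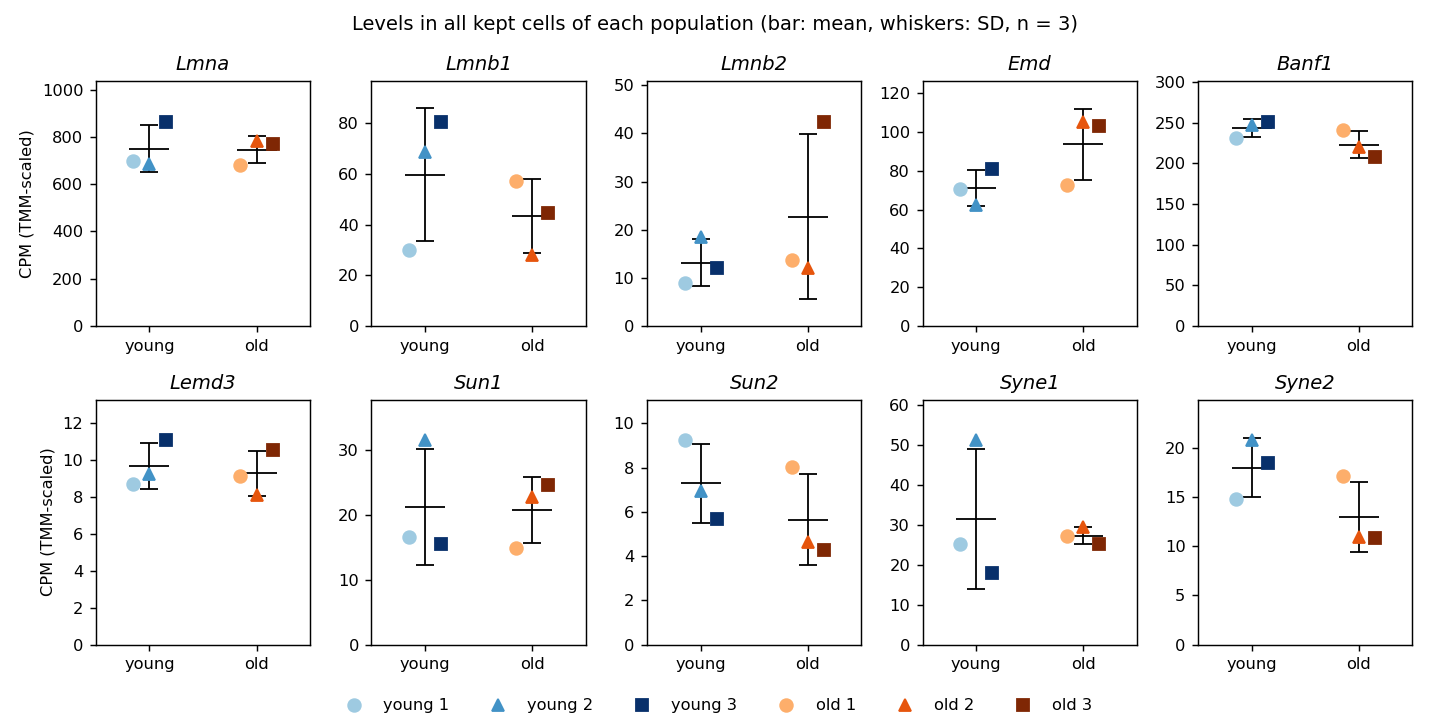
Level of each of the 10 genes over all kept cells (y axis, TMM-scaled CPM, from 0) in young and old populations (x axis), 1 point per population, with the mean and SD (n = 3 per group). The groups overlap for all 10 genes, and old 3 stands apart for Lmnb2 (42.4 CPM) and young 2 for Syne1 (51.2 CPM).

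As 1 view of the balance of A-type to B-type lamin, the ratio of Lmna to Lmnb1 UMIs was taken, without division by length. Lmnb2 was left out, so the order of the populations may differ with both B-type lamins. In old 3, Lmnb2 held 7311 UMIs beside 7714 of Lmnb1. The Lmna to Lmnb1 ratio was 23.3, 10.0 and 10.7 in young 1, 2 and 3 and 11.9, 27.9 and 17.2 in old 1, 2 and 3. Young 1 thus lay among the old values and old 1 near the lower young ones. The log2 difference between old and young was 0.40, with p = 0.5 in an exact two-sided permutation test, for which 0.1 is the smallest p possible with 3 against 3. The difference was 0.08 without old 2, 0.18 without young 2, 0.23 without young 3, 0.69 without old 1, 0.79 without young 1 and 1.08 on the longer gene list. By state the ratio was 22.5 to 96.5 in G1-called cells, 7.58 to 17.4 in S-called cells and 6.83 to 14.6 in G2/M-called cells. No S or G2/M ratio reached the lowest G1 ratio.

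G1-called cells were next divided by their Cdkn1a count. Cdkn1a encodes p21, an inhibitor of cyclin-dependent kinases that is induced in arrested and senescent cells. Cells above their population's median were compared with the rest, which cuts a range and does not define a cell type. In young 3 and old 3 the median was 0, so there the classes are cells with and without a Cdkn1a UMI. Lmnb1 was lower in the Cdkn1a-high class in 6 of 6 populations, but missed the threshold. Emd and Banf1 were also lower and Sun1 higher in 6 of 6, without passing, and 13.9% of all genes changed in 1 direction in all 6. The Sun1 change was near 0 in old 1, young 1 and old 3 (log2 0.0008, 0.04 and 0.05). In young 3, old 2 and young 2 it was 0.37, 0.47 and 0.88. The Emd change ran from -0.25 in old 3 to -0.01 in young 2. Lmnb1 levels in the low class were 13.1, 19.7 and 38.7 CPM (young) against 33.5, 8.73 and 15.2 CPM (old), and in the high class 9.92, 13.3 and 35.9 CPM and 27.9, 6.63 and 11.4 CPM. The log2 change was -0.34 (SE 0.06, unadjusted p = 0.000476, edgeR adjusted p = 0.0576), or a fold of 0.788. None of the 10 genes was called, where 0.0882% of 12476 genes were (11 genes, 2739 at an unadjusted p under 0.05). The number called depended strongly on the fit, with 957 genes in DESeq2, which called Lmnb1 (adjusted p = 0.00357) and Banf1 (adjusted p = 0.0411), and 869 in edgeR without old 3, where Lmnb1 passed (edgeR adjusted p = 0.0268). Lmnb1 also passed with no low-count filter (edgeR adjusted p = 0.0381) and between the ends of the Cdkn1a range (edgeR adjusted p = 0.0498). It did not pass in the other 7 alternatives, which include sums of thinned counts (edgeR adjusted p = 0.061), where Syne1 did (log2 0.27, edgeR adjusted p = 0.037). Lmna was 0.935-fold in the high class (edgeR adjusted p = 0.186), lower in 5 of 6. Myog differed between these classes too, at 34.4 to 1482 CPM in the high class against 0.443 to 94.7 CPM in the low class of 5 populations, and 1171 against 1769 CPM in old 3. Mki67 was 0.675-fold in the high class (edgeR adjusted p = 0.196). The part of either in the Lmnb1 difference was not tested.

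Myog encodes myogenin, a transcription factor of differentiating myoblasts, and G1-called cells with at least 1 Myog UMI among 5000 were compared with those that had none. Sun1, Lmnb2 and Syne1 were higher and Syne2 and Lmnb1 lower in the Myog-positive class. That made 5 of the 10 genes called, where 37.8% of 12395 genes were (15.9% higher and 21.9% lower). Sun1, Lmnb2, Syne2 and Lmnb1 changed in 1 direction in all 6 populations, as did 36.2% of all genes. Class sizes differed widely, with 243, 1359 and 158 Myog-positive cells in young 1, 2 and 3 against 53, 1121 and 3004 in old 1, 2 and 3. These were 1.51% (old 1) to 56.4% (old 3) of the G1-called cells, and 16.7% to 38.0% of them held just 1 Myog UMI. No cell type that lacks Myog was defined, so the share that free RNA gives was not measured. In S-called cells, at the same 5000 UMIs, the share with a Myog UMI was 0.0723% in old 1, 0.965% in young 1, 3.84% in young 3, 4.24% in old 2, 11.3% in young 2 and 33.6% in old 3, so the class may not mean the same in each population. Cdkn1a was 3.93-fold higher (edgeR adjusted p = 0.00379) and Mki67 0.621-fold (edgeR adjusted p = 0.0146) in the positive class, and their part in what follows was not tested.

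Sun1 and Lmnb2 had the largest fitted rises, and the difference between them was not tested. Sun1 was 15.8, 30.9 and 14.2 CPM (young) against 14.3, 22.4 and 16.0 CPM (old) in Myog-negative cells. In Myog-positive cells it was 28.7, 70.4 and 29.3 CPM and 34.6, 34.9 and 39.0 CPM, higher in 6 of 6. The fold was 2.07 (log2 1.05, SE 0.10, edgeR adjusted p = 7.13e-05). Its SUN partner Sun2 did not pass (log2 -0.32, SE 0.14, edgeR adjusted p = 0.0898), and the difference between the 2 genes was not tested.

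Lmnb2 rose 1.99-fold with Myog (log2 1.00, SE 0.12, edgeR adjusted p = 0.000192). It went from 6.13, 9.18 and 6.97 CPM to 11.9, 14.8 and 10.9 CPM in the young and from 8.49, 6.89 and 15.9 CPM to 23.1, 15.8 and 33.1 CPM in the old populations. Lmnb1 was lower in the positive class of every population, by a fold of 0.797 (log2 -0.33, SE 0.10, edgeR adjusted p = 0.0217). That call rests on as few as 14 UMIs in the Myog-positive cells of old 1 and 20 in those of young 1. It was lost without young 2 (edgeR adjusted p = 0.0599), without old 3 (edgeR adjusted p = 0.0552) and with sums of thinned counts (log2 -0.41, edgeR adjusted p = 0.0552). It was also lost with at least 3 Myog UMIs asked for, which left 5 populations with enough cells (log2 -0.42, edgeR adjusted p = 0.0732). The B-type lamins, which both rose from G1 to S and G2/M, thus had opposite signs here. Lmna did not pass (fold 0.971, edgeR adjusted p = 0.644).

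Syne2 was 7.90, 12.5 and 11.4 CPM in Myog-negative and 2.30, 4.81 and 5.19 CPM in Myog-positive cells of the young populations. In the old populations it was 11.3, 5.32 and 4.21 CPM against 7.69, 1.51 and 2.76 CPM. The fold was 0.429 (log2 -1.22, SE 0.18, edgeR adjusted p = 0.000677), with between 6 and 100 Syne2 UMIs behind the positive values. Syne1 was higher in 5 of 6 populations, the exception being old 1 with 17 UMIs, and changed by 1.28-fold (log2 0.36, SE 0.12, edgeR adjusted p = 0.0378). The Syne1 call was lost without young 2, young 3, old 2 or old 3 (edgeR adjusted p = 0.0741 to 0.128). Emd, Banf1 and Lemd3 did not pass.

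**Figure D5:**
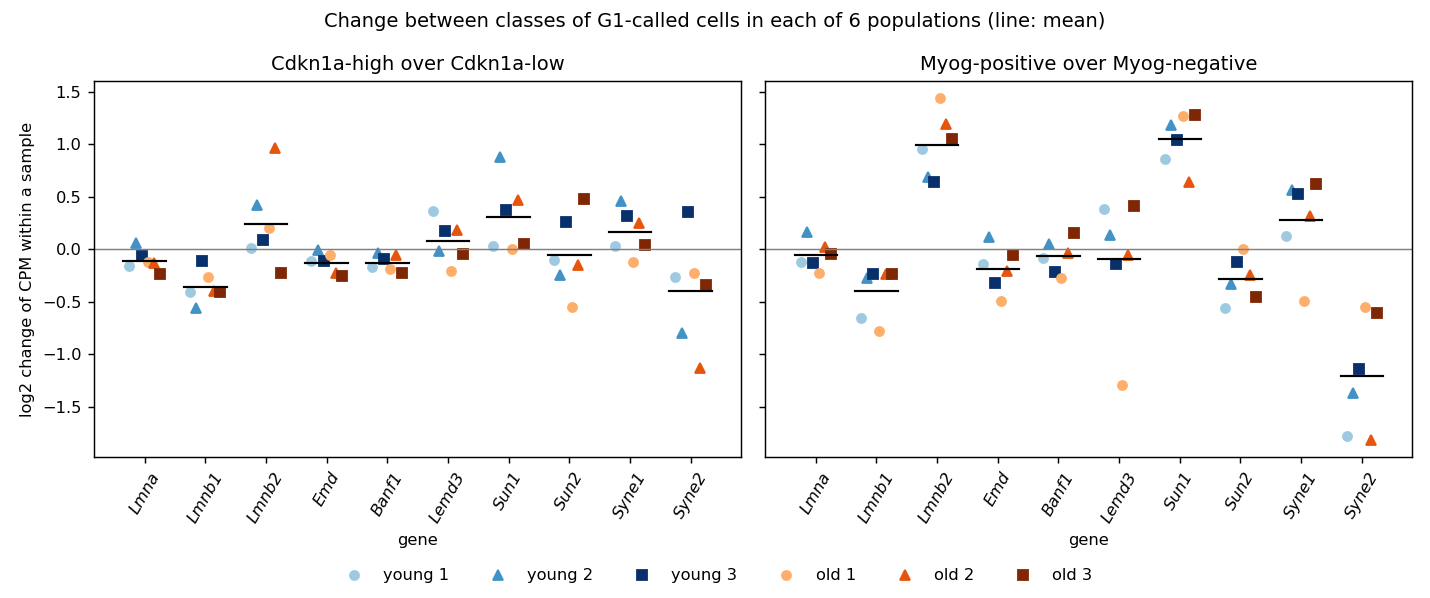
Log2 change of CPM within each population (y axis) for the 10 genes (x axis) between classes of G1-called cells, Cdkn1a-high over Cdkn1a-low on the left and Myog-positive over Myog-negative on the right. Points are the 6 populations and lines their means, and Lmnb1 is below 0 in all 6 on both sides. On the left, Emd and Banf1 are below 0 and Sun1 above 0 in all 6, with Sun1 in old 1 (0.0008) and Emd in young 2 (-0.01) almost at 0. On the right, Sun1 and Lmnb2 are above 0 and Syne2 below 0 in all 6.

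Other nuclear envelope genes were read from a fixed list of 25, of which Tmpo and Lbr belong to the G2/M gene set and are left out by state. In S against G1, 13 of the 22 tested were higher and 7 lower, and in G2/M against G1, 12 were higher and 5 lower. Over all genes these shares were 23.0% higher and 32.3% lower in S, and 23.1% higher and 30.8% lower in G2/M. The largest rises in G2/M were those of Ankle1, a LEM-domain endonuclease (log2 3.64, SE 0.32, edgeR adjusted p = 9.27e-07), Nrm, which encodes nurim (1.83, SE 0.29, edgeR adjusted p = 0.000241), and Vrk1, a kinase that phosphorylates Banf1 (1.60, SE 0.12, edgeR adjusted p = 3.29e-07). Nemp1 followed at 1.35 (SE 0.12, edgeR adjusted p = 6.62e-07), and Vrk2, Nemp2, Tmem43, Syne3, Tmem201, Tor1a, Matr3 and Tor1aip1 rose by 0.86 to 0.14. The falls included the muscle-enriched membrane genes Plpp7 (-1.66, SE 0.19, edgeR adjusted p = 8.05e-06) and Tmem38a (-1.36, SE 0.25, edgeR adjusted p = 0.000695) and the lamin-interacting Mlip (-0.94, SE 0.20, edgeR adjusted p = 0.000784), with Plec and Tor1aip2 at -0.16. In S, Ankle1 (2.63), Nrm (2.28), Vrk1 (1.54), Nemp2 (1.45), Nemp1 (1.32) and Vrk2 (1.18) rose most, and Tor1a, Tor1b, Tmem201, Syne3, Tmem43, Tor1aip1 and Matr3 rose by 0.47 to 0.17. Plpp7 (-2.39), Tmem38a (-1.47) and Mlip (-1.20) fell most in S, and Tor1aip2, Lemd2, Plec and Chmp7 stood between -0.22 and -0.20. With Myog, 3 of the 22 tested rose and 2 fell, where 15.9% of all genes were higher and 21.9% lower. Plpp7, Tmem38a and Mlip rose, by 3.72, 3.47 and 1.08 on the log2 scale (edgeR adjusted p = 0.00311, 0.000189 and 0.00707), and Tmem43 (-0.44, edgeR adjusted p = 0.00896) and Vrk2 (-0.42, edgeR adjusted p = 0.00632) were lower in Myog-positive cells. Mlip held 1, 2 and 0 UMIs in the Myog-positive cells of young 1, young 3 and old 1. The calls of Mlip and Vrk2 were lost with sums of thinned counts (edgeR adjusted p = 0.0985 and 0.235). None of the 25 was called between old and young, and none of the 22 tested was called between the Cdkn1a classes.

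All 4 nuclear basket and lamin-binding pore genes (Nup153, Tpr, Nup50 and Nup98) were higher in both S and G2/M, where 23.0% and 23.1% of all genes were, with Nup153 at log2 0.62 (SE 0.05, edgeR adjusted p = 8.51e-08) and 0.49 (SE 0.05, edgeR adjusted p = 5.72e-07). Of 5 genes that process the CaaX end of prelamins, Fntb, a farnesyltransferase subunit, and Rce1, the CaaX protease, were higher in both states. Fntb changed by 0.43 in S (SE 0.06, edgeR adjusted p = 2.45e-05) and 0.38 in G2/M (SE 0.06, edgeR adjusted p = 5.22e-05). Zmpste24, which trims prelamin A, rose by 0.13 in G2/M (SE 0.04, edgeR adjusted p = 0.00876), and Fnta was lower in both states (log2 -0.08 and -0.10). Icmt passed only in the Myog comparison, where it was lower (log2 -0.37, SE 0.13, edgeR adjusted p = 0.0455).

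Genes with the pattern most like a member were ranked by Pearson's r of log2 CPM over the 18 sums (6 populations times 3 states). The search covered the 6160 genes whose mean level was above a fixed cut. The sums of a population share its cells' library and the states share their calls, so r is given as a description. For Lmnb1 they were Kif15 (0.97), Cse1l (0.97), Trip13 (0.97), Vrk1 (0.96) and Diaph3 (0.96). For Syne2 they were Cep57 (0.93), Banf1 (0.92), Lmnb1 (0.91), Dcbld2 (0.91) and Smc3 (0.91), and Banf1 and Lmnb1 are among the 10 genes. Members with low counts, such as Lemd3 and Sun2, were below the cut and could not be found. For Lmna the closest were Ptms (0.87), Mid1 (0.82), Pde10a (0.82), Nt5c3 (0.82) and Fzd2 (0.81). Among pairs of the 10 genes, the highest r after those of Syne2 with Banf1 and Lmnb1 were 0.87 for Lmnb1 and Banf1 and 0.78 for Sun1 and Syne1, and Lmna and Lmnb1 had r = 0.21.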

How the data were processed

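The authors deposited, for each of the 6 populations, raw UMI counts per gene and cell barcode with no normalization, made with Cell Ranger 7.0.0 (young 1 and old 1) or 7.2.0 (the other 4), per the file headers. The submitters' processing notes list the build mm10, Cell Ranger 7.2.0 and Seurat. The treatment of intronic reads and the annotation are not given in the sources used here. Cells with at least 1000 UMIs, at least 500 genes and under 15% mitochondrial UMIs were kept (8674, 10806 and 10780 young and 10147, 8725 and 12541 old cells). Counts of the 21485 shared gene identifiers were summed per population, which was the replicate (n = 3 per group). Old and young were compared with edgeR 4.0.16 (filterByExpr, TMM, robust quasi-likelihood fit, two-sided, Benjamini-Hochberg over all genes, threshold 0.05), with the gene list as a term. The SE of a log2 fold change was taken from its F statistic.

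For cell cycle states, 60305 cells were thinned to 5000 UMIs and called per population with scanpy 1.11.5 (43 S and 54 G2/M genes), and the unthinned counts were summed per population and state. Between 12.7% and 24.5% of cells lay within 0.05 of a boundary between states. State and class contrasts used the population as a block. No doublet caller was run, and leaving out the deepest 10% of cells was tried instead. The submitters' titles number the replicates in both groups. Same-numbered populations had correlations of 0.38, 0.22 and -0.08, and differently numbered ones -0.41 to 0.28. The highest was that of young 1 with old 1, which also share the shorter gene list. These values do not decide whether the numbers pair the populations, and no pairing was used in the main fit. DESeq2 1.42.0 was the alternative test. On simulated data, the G2/M fit called 96% to 100% of changes of 1 on the log2 scale, and the old against young fit 60% to 64% of changes of 1 and 100% of changes of 2. The simulated counts varied less than the old against young data, whose biological coefficient of variation (spread beyond counting noise) was 0.563. Changes were simulated only in well-counted genes. The simulation gave all populations the same gene profile and the same state change. In these data the log2 change of Lmnb1 in G2/M ran from 1.18 to 3.03 over the populations. For both fits, the share of changes found at the spread of these data was therefore not measured and may be lower.

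The 10 genes were named with values, and of the other nuclear envelope genes those past the threshold in S or G2/M against G1 or with Myog. The markers were Pax7, Myf5, Myod1, Myog, Des, Cdh15, Chrna1, Itga7, Vcam1 and Musk (myogenic), Pdgfra, Dcn, Lum, Col3a1, Gsn, Smoc2, Ly6a and Cd34 (fibro-adipogenic), Pecam1, Cdh5, Kdr, Tie1 and Emcn (endothelial), Ptprc, Cd68, Adgre1, Lyz2, Cd3e and Cd79a (immune), Myh11, Rgs5, Kcnj8, Notch3 and Cspg4 (smooth muscle and pericyte), and Adipoq, Plin1, Fabp4 and Cfd (adipocyte). A further marker list is not reported here. The members and lists were chosen with earlier results of these data known.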

Additional observations from a re-analysis of the deposited data

Results flagged for a closer look

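In each of 40 groups of 6 populations (10 genes in 4 within-population comparisons), the highest or lowest value was compared with the rest by Dixon's criterion, whose critical value for 6 is 0.625. It was exceeded in 2 of the 40, and chance alone flags about 1 group in 20. The log2 change of Lmna in S against G1 was 0.16 in old 2, where the other 5 populations lay between -0.10 and -0.02. The log2 change of Lemd3 in Myog-positive against Myog-negative cells was -1.29 in old 1, where the 53 Myog-positive cells held 3 Lemd3 UMIs, and between -0.14 and 0.41 in the other 5.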

How the results depend on the processing

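The state changes of Lmnb1, Lmnb2, Syne2, Emd, Banf1 and Syne1, and the G2/M change of Sun2, kept their direction and passed in all 13 alternatives of their comparison. With 5 or 6 populations in each, small changes in lowly counted genes such as Sun2 and Lemd3 may be missed. A fit with the replicate number as a block called 1 gene between old and young and none of the 10, with Lmnb1 at -0.42 and Sun1 at 0.0107.

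The count of genes called between old and young was 219 in DESeq2, 0 with no gene list term, 0 on the longer list, and 0 in G1-called or S-called cells. It ranged from 0 to 3 when 1 population was left out, where leaving out young 1 or old 1 makes the other indistinguishable from the list term. The difference by age was called for 0 to 1 genes in S when 1 population was left out, and for 1 gene in G2/M with DESeq2. G2/M against S gave 1384 to 1962 genes, and 1 to 3 of the 10 genes, when 1 population was left out.

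Between Cdkn1a classes the count was 957 in DESeq2, 73 with RLE size factors, 139 with no low-count filter, 402 with thinned sums, 97 for cells at the ends of the Cdkn1a range (in old 3 the same cells as in the main classes, and in young 3 the same low class), and 0 to 869 when 1 population was left out. Of the 10 genes, 2 were called in DESeq2 (Lmnb1 and Banf1), 1 with no filter or at the ends of the range (Lmnb1), 1 with thinned sums (Syne1), and 0 to 1 without 1 population. Between Myog classes 3 to 5 were called without 1 population.

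Signs turned only for values that had not passed. For old against young, Lmna was 0.0043 on the longer list, 0.0557 in S-called and in G2/M-called cells, 0.0295 with chromosome shifts taken out, and -0.116 to 0.0857 without 1 population. Sun1 was 0.0107 with the replicate block, 0.00943 on the longer list and -0.31 to 0.26 without 1 population. Without 1 population, Syne1 ranged from -0.49 to 0.37, Lemd3 from -0.15 to 0.0607 (0.0631 in S-called cells) and Lmnb1 from -1.03 to 0.0015. By state, Lemd3 in S was 0.0474 with thinned sums, 0.0322 with cells near a boundary left out and -0.0721 to 0.00944 without 1 population, and in G2/M it was 0.00585 with joint scores. Sun2 in S was -0.0259 with the deepest 10% of cells left out and -0.0411 to 0.0798 without 1 population. The age difference of Lmnb1 ranged from -0.0839 to 0.73 in S and from -0.30 to 0.66 in G2/M. Sun2 by Cdkn1a ranged from -0.18 to 0.0443. By Myog, Lmna was 0.0394 at 3 or more UMIs, a setting that also leaves out old 1, and Banf1 was 0.0029 with thinned sums. Causes were not tested.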
